A study of Mus musculus with 8 samples.

Results

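The 10 genes described here encode transcription factors of the AP-1 family (Fos, Fosb, Fosl1, Fosl2, Jun, Junb, Jund and Atf3) and other immediate-early factors (Egr1 and Ier2). They were chosen by symbol, are 10 of the 30387 genes in the deposited table, and all 10 passed the filter for testing (a mean of 5 normalized counts or more in the 8 libraries), as 18800 genes did. RNA was sequenced from primary white adipocytes of epididymal fat, taken from wild-type littermates (WT) and from Ad-Yap/Taz-KO mice, after 4 weeks on a standard chow diet (SD) or on a Western-type high-fat diet (HFD), with 2 libraries in each of the 4 groups. Ad-Yap/Taz-KO mice, called KO here, are homozygous for floxed Yap (Yap fl/fl) and for floxed Taz (Taz fl/fl) and carry Adipoq-Cre, in which the adiponectin promoter drives Cre constitutively, so deletion is limited to cells that use this promoter and precedes the diet. The study's methods state breeding with C57BL/6 mice for the floxed Taz line. The submitters' labels start the diets at week 5 of life, whereas the study's methods give a later age for its animals. Male animals are stated for the study's in vivo work, while the labels give no sex. The comparisons ask how the absence of YAP and TAZ, and the diet, bear on the transcripts of these adipocytes.

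AP-1 is a dimer of basic leucine zipper proteins. Fos proteins need a Jun partner to bind DNA, while Jun proteins can also pair with each other or with ATF proteins, and the dimer binds short palindromic sites in promoters and enhancers. YAP and TAZ reach DNA through TEAD factors, which often share enhancers with AP-1. Immediate-early genes are transcribed within minutes of growth factor, stress or inflammatory signals, without new protein synthesis, and are also known to be switched on while fat is minced and digested to free the adipocytes. Their transcripts are short-lived, so a level reflects the moment of lysis.

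Promoter sequences were found in RefSeq (build GRCm38.p6) for 7 of the 10 genes, and 4 are shown as the 250 bases before the start given there. Fos and Jun were the genes with the largest differences between the genotypes on SD, Atf3 was the gene called higher in KO than in WT mice on HFD, and Fosl2 had the smallest difference between the genotypes on SD. Capitals mark TGACG, the half-site of the cAMP response element, or TGANNTCA, the palindrome of AP-1 and related dimers with 2 central bases.
Fos (chr12:85473640-85473889, plus strand): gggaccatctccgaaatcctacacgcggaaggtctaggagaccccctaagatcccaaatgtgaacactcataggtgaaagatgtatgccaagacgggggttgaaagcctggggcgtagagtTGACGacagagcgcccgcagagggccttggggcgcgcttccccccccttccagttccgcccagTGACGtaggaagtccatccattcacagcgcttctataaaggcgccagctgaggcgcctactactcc
Jun (chr4:95052223-95052472, minus strand): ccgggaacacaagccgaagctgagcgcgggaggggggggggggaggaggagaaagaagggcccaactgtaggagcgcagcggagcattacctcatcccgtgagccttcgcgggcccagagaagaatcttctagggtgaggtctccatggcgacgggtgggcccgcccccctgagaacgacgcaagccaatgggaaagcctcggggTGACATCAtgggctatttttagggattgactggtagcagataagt
Atf3 (chr1:191183334-191183583, minus strand): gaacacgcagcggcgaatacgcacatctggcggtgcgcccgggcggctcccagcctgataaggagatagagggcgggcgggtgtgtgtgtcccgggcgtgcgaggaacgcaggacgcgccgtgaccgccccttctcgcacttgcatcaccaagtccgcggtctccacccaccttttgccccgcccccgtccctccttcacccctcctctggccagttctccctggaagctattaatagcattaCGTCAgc
Fosl2 (chr5:32136222-32136471, plus strand): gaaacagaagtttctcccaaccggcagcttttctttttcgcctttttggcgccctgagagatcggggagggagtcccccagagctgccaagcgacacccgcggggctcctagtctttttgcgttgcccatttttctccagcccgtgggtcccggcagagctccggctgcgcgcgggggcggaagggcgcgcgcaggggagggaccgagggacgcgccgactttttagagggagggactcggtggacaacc
Searched on both strands, TGACG was present in 4 of the 7 promoters (Fos, Fosb, Junb and Atf3) and in 17.8% of 32851 RefSeq promoters of the same length. TGANNTCA was present in 2 of the 7 (Jun and Jund) and in 11.9% of all, and no match overlapped one of TGACG. The AP-1 site with 1 central base, TGANTCA, and the TEAD site, GGAATG, were in none of the 7 windows, against 6.75% and 12.6% of all promoters. The starts used for Atf3, Fosl2 and Fosb lie inside the spans these genes have in the deposited table, those of Fos and Jun at their ends, and those of Junb and Jund outside. The Jund window, which holds 1 of the 2 matches of TGANNTCA, ends at 70697738, while the span in the table begins at 70698949.

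The libraries held 14.0 to 22.3 M reads on genes, and the deposited values summed to between 14890264 and 20994246. Wwtr1, which encodes TAZ, ranged from 4743 to 7121 normalized counts in the 4 WT libraries and 1957 to 2707 in the 4 KO libraries, and Yap1 had 2333 to 2776 and 1549 to 2068, so both targeted genes were lower in every library labelled KO. All 12 adipocyte markers were detected in every library. Their summed level was 325128 and 334653 in WT SD, 429928 and 421005 in WT HFD, 276657 and 365206 in KO SD and 210225 and 112539 in KO HFD libraries. The WT HFD libraries lay closer to each other than other pairs: in genes with 1000 to 5000 normalized counts, their squared difference was 5.86 times the Poisson expectation, against 25.8 times or more in the other groups. For this reason the value of each of these libraries is given in place of a mean ± SD. The labels call the 2 libraries of a group repeats, and the study describes them as 2 mice per group.

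A gene was called when its limma p-value, adjusted by the Benjamini-Hochberg method over all 18800 genes, was at most 0.05 and its log2 fold change at least 0.59 in either direction. For a single gene, an exact permutation test (two-sided) of 2 libraries against 2 cannot go below p = 0.333, so every adjusted p below comes from limma. The 4 comparisons of groups share libraries: the WT SD libraries enter both the genotype comparison on SD and the diet comparison in WT mice, and the WT HFD libraries enter both the genotype comparison on HFD and the diet comparison in WT mice.

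Across the 8 libraries, the WT SD libraries stood highest. In 9 of the 10 genes, all but Fosl2, both WT SD libraries were above the 6 others, a pattern that 5.91% of the 18800 tested genes had. Together, the 10 genes made up 1.258 and 1.095% of all normalized counts in the WT SD libraries, 0.491 and 0.492% in the WT HFD libraries, 0.585 and 0.523% in the KO SD libraries and 0.506 and 0.626% in the KO HFD libraries. These shares do not depend on the size factors of the libraries. The WT SD libraries enter the genotype comparison on SD, the diet comparison in WT mice and the interaction. A difference in how these 2 libraries were collected or handled was not tested and cannot be told apart from genotype or diet.

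**Figure D1:**
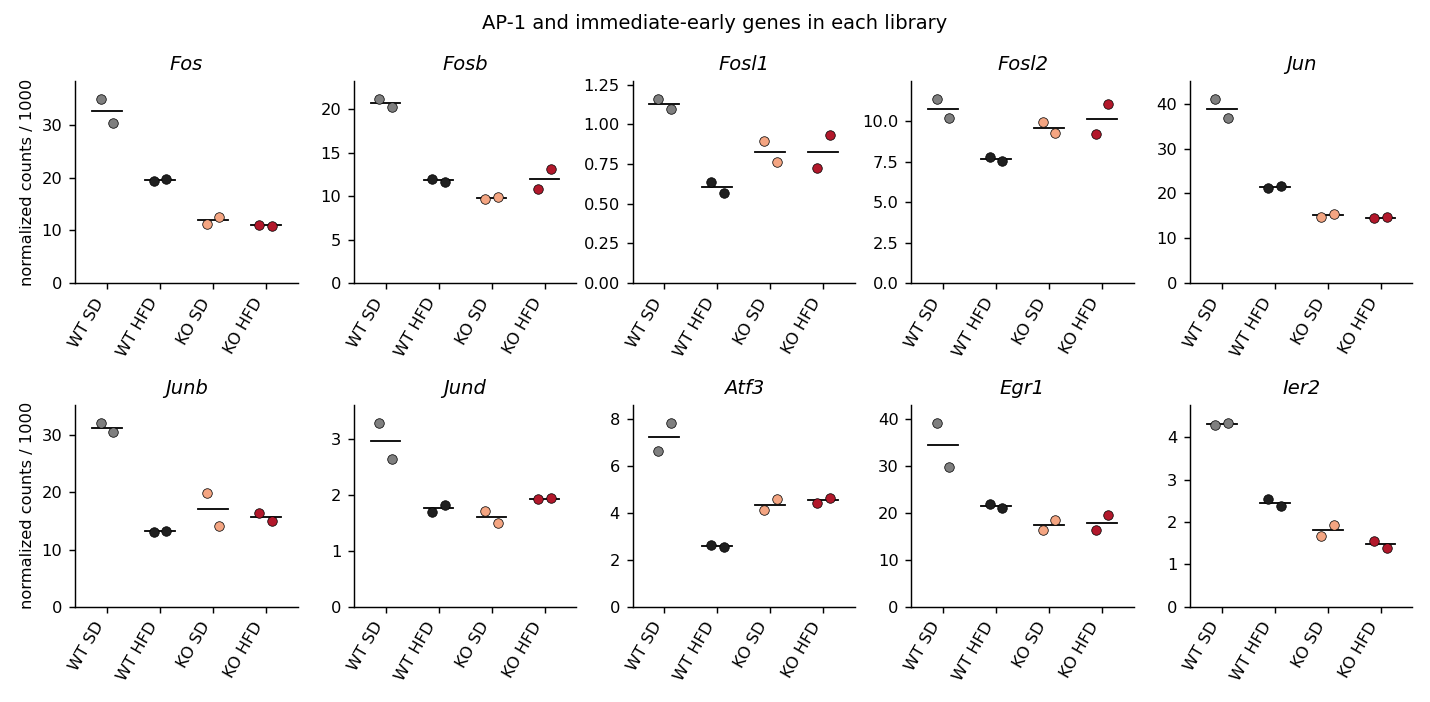
Normalized counts, in units of 1000 and from 0, of the 10 genes in each library. Points are the 2 libraries of a group, lines their mean. In 9 of the 10 genes both WT SD points lie above the other 6, and the 2 WT HFD points lie close together.

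Among the Fos family, Fos itself (ENSMUSG00000021250, chromosome 12, 85473890 to 85477273, GRCm38) is the classical signal-induced AP-1 subunit. It had 34860 and 30383 normalized counts in WT mice on SD, 19366 and 19717 in WT mice on HFD, 11145 and 12615 in KO mice on SD, and 11036 and 10875 in KO mice on HFD. All 4 WT libraries were above all 4 KO libraries. Fosb (ENSMUSG00000003545, chromosome 7, 19302696 to 19310051), a Fos paralog known for long-lived splice products in brain, had 21100 and 20175 in WT SD, 11972 and 11668 in WT HFD, 9661 and 9920 in KO SD and 10857 and 13074 in KO HFD libraries. Here the genotypes were separate on SD, but on HFD the WT values lay between the 2 KO values.

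Fosl1 (ENSMUSG00000024912, chromosome 19, 5447703 to 5455945), which lacks the strong activation domain of Fos, was the lowest of the 10 genes, per kb of exon as well. It had 1158 and 1096 normalized counts in WT SD, 639 and 570 in WT HFD, 897 and 762 in KO SD and 724 and 933 in KO HFD libraries. The WT HFD libraries were the lowest 2 of the 8. Fosl2 (ENSMUSG00000029135, chromosome 5, 32135801 to 32157842), the other paralog without that domain, had 11355 and 10189 in WT SD, 7822 and 7578 in WT HFD, 9930 and 9274 in KO SD and 9191 and 11049 in KO HFD libraries. Its WT HFD libraries were again the lowest 2, while the other 6 libraries ran into each other.

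In the Jun family, Jun (ENSMUSG00000052684, chromosome 4, 95049034 to 95052222), the substrate of the JNK kinases, had 40952 and 36846 normalized counts in WT SD, 21238 and 21627 in WT HFD, 14776 and 15377 in KO SD and 14478 and 14646 in KO HFD libraries. As for Fos, every WT library was above every KO library. Junb (ENSMUSG00000052837, chromosome 8, 84974484 to 84978718), a Jun paralog that can oppose Jun on some promoters, had 32135 and 30588 in WT SD, 13063 and 13318 in WT HFD, 19986 and 14183 in KO SD and 16463 and 15029 in KO HFD libraries. Its order differed from that of Jun, with the WT HFD libraries below all 4 KO libraries. Jund (ENSMUSG00000071076, chromosome 8, 70698949 to 70700616), the paralog that most cells express without stimulation, had 3294 and 2657 in WT SD, 1705 and 1826 in WT HFD, 1710 and 1505 in KO SD and 1931 and 1949 in KO HFD libraries. Outside the WT SD group its 6 values spanned 1505 to 1949.

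Atf3 (ENSMUSG00000026628, chromosome 1, 191170296 to 191218039) is a stress-induced factor that dimerizes with Jun proteins and acts as a repressor as a homodimer. It had 6664 and 7843 normalized counts in WT SD, 2650 and 2546 in WT HFD, 4124 and 4609 in KO SD and 4412 and 4665 in KO HFD libraries. All 4 KO libraries lay below the WT SD and above the WT HFD libraries. Egr1 (ENSMUSG00000038418, chromosome 18), a zinc finger factor induced through ERK and serum response factor, had 39201 and 29737 in WT SD, 22005 and 21189 in WT HFD, 16415 and 18449 in KO SD and 16300 and 19635 in KO HFD libraries. Ier2 (ENSMUSG00000053560, chromosome 8, 84661331 to 84662852), a small nuclear protein of the immediate-early response, had 4300 and 4338 in WT SD, 2548 and 2375 in WT HFD, 1683 and 1927 in KO SD and 1555 and 1394 in KO HFD libraries. For both genes, every WT library was above every KO library. For this pattern, seen in Fos and Jun as well, the share of all tested genes was not counted.

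Between genes, levels were compared per kb of exon. In WT mice on SD, Fos (mean 13870 normalized counts per kb) and Junb (13630) led, and their libraries overlapped. Jun followed with 12198, then Egr1 with 7687. Atf3 (3367) and Fosb (3306) overlapped, and Ier2 (2838), Jund (1784), Fosl2 (1113) and Fosl1 (554) came below them with no overlap between neighbours. In KO mice on SD, Junb led with 7425 per kb, above Fos (5051), Jun (4728), Egr1 (3888), Atf3 (2027) and Fosb (1568), with Fos and Jun overlapping each other. In that group Ier2 (1186), Fosl2 (992) and Jund (964) were near one another, with Fosl2 and Jund overlapping, and Fosl1 (408) was again the lowest. On HFD the order in WT mice was Fos (8308), Jun (6721), Junb (5733), Egr1 (4816), Fosb (1893), Ier2 (1617), Atf3 (1206), Jund (1058), Fosl2 (795) and Fosl1 (297), with no overlap between neighbours. In KO mice on HFD it was Junb (6843), Fos (4658), Jun (4566), Egr1 (4007), Atf3 (2107), Fosb (1917), Jund (1163), Fosl2 (1045), Ier2 (969) and Fosl1 (408), and Atf3 overlapped with Fosb and Fosl2 with Ier2. By the means, Junb thus stood first per kb in both KO groups, and Fos in both WT groups. In WT SD replicate 2, however, Junb (13293) was above Fos (12918).

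**Figure D2:**
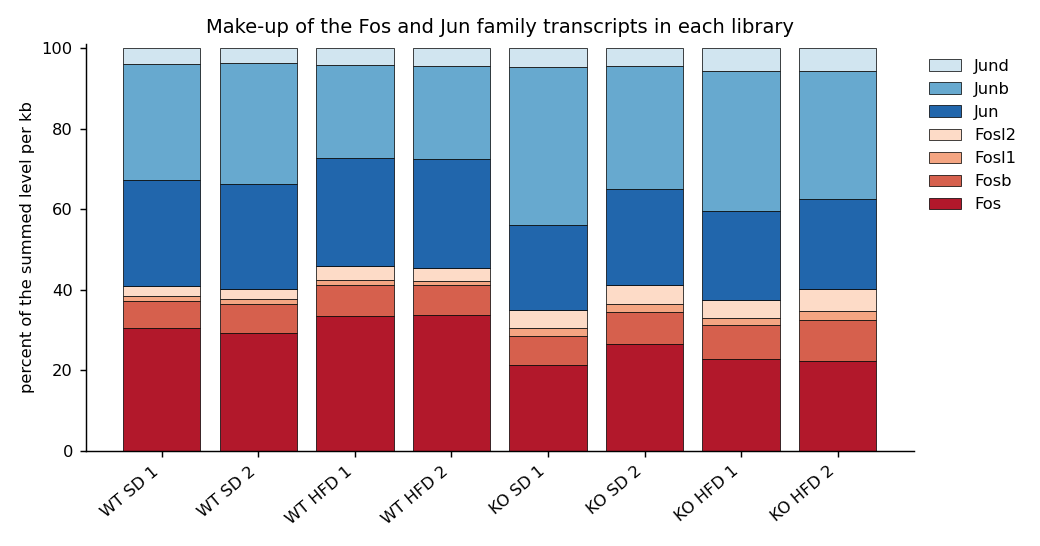
Percent of the summed level per kb of exon that each of the 7 Fos and Jun family genes took in each library, with bars that add to 100 from 0. Fos takes 29.2 to 33.6% in the WT libraries and 21.4 to 26.6% in the KO libraries, and Junb 23.0 to 30.1% and 30.6 to 39.3%.

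Within the Fos and Jun families, the make-up of the transcript pool differed between the genotypes. Fos made up 29.2 to 33.6% of the summed level per kb of the 7 genes in the 4 WT libraries and 21.4 to 26.6% in the 4 KO libraries, and Fosl2 made up 2.4 to 3.3% and 4.6 to 5.5%. Jun took 26.2 to 27.1% in WT and 21.0 to 23.9% in KO libraries, Fosl1 1.1 to 1.3% and 1.7 to 2.2%, and Jund 3.6 to 4.4% and 4.5 to 5.7%, while the shares of Fosb overlapped. Junb, in contrast to Jun, took 23.0 to 30.1% in WT and 30.6 to 39.3% in KO libraries. The Fos family genes together took 40.2 to 45.8% in WT and 35.1 to 41.1% in KO libraries, ranges that overlapped. These shares are given as a description and were not tested.

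On SD, the genotypes differed in most of the 10 genes. In KO mice, 8 of the 10 fell, where 1.5% of all tested genes were called lower and 4.71% in either direction. The largest differences were those of Fos, at 0.36 of the WT level (log2 fold change -1.46, standard error 0.16, adjusted p = 0.00015), Jun at 0.39 (-1.37, standard error 0.16, adjusted p = 0.00022) and Ier2 at 0.42 (-1.26, standard error 0.15, adjusted p = 0.00023). On the log2 scale, Fosb fell by 1.08 (standard error 0.16, adjusted p = 0.0011), Egr1 by 0.97 (0.19, adjusted p = 0.0084), Junb by 0.90 (0.18, adjusted p = 0.012), Jund by 0.88 (0.16, adjusted p = 0.0048) and Atf3 by 0.73 (0.15, adjusted p = 0.012). Fosl1 (log2 fold change -0.45, standard error 0.18, adjusted p = 0.22) and Fosl2 (-0.16, standard error 0.15, adjusted p = 0.65) were not called, although in all 10 genes both KO libraries lay below both WT libraries, as in 22.2% of all tested genes.

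Fos, Fosb, Jun and Ier2 were called under each of the 12 other settings tried for this comparison and with each of the 8 libraries left out in turn. Without WT SD replicate 1, 5 genes were called, and Junb, Jund and Egr1 were not. The call of Junb was also lost without WT SD replicate 2 and without KO SD replicate 2, and those of Junb and Egr1 with no filter and under quantile normalization. Atf3 was not called without WT SD replicate 2 (log2 fold change -0.61) or without KO SD replicate 1 (-0.65). In KO mice on SD, Junb also had the widest gap between the libraries of a group, 1.41 times.

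The other lists of genes that bear on AP-1 are read beside the 4.71% of all tested genes called between the genotypes on SD, a share at which lists of 15 or 19 genes can hold no call. Among 15 genes of the JNK cascade, which phosphorylates Jun, limma called 0 (2 at an unadjusted p under 0.05), including Mapk8 (log2 fold change -0.18, standard error 0.22, adjusted p = 0.74) and Mapk9 (0.41, standard error 0.16, adjusted p = 0.2), which encode the kinases JNK1 and JNK2. Of 19 genes of the ERK, SRF and CREB inputs to immediate-early promoters limma also called 0 (4 at an unadjusted p under 0.05). Of 22 other AP-1 and related bZIP genes, 2 fell and 1 rose. Those that fell were Ddit3, which encodes the stress factor CHOP (log2 fold change -1.34, standard error 0.21, adjusted p = 0.0017), and Maff, a small Maf protein (-1.05, standard error 0.15, adjusted p = 0.001). Of 12 genes of TNF and IL-1 signalling 3 rose and none fell, Tnf among them from 680 and 688 to 4600 and 2791 (log2 fold change 2.39, standard error 0.23, adjusted p = 4.8e-05). Of 24 known targets of AP-1 or of TEAD with AP-1, 7 rose and 2 fell, and Cd44, an adhesion receptor, rose by 2.40 (standard error 0.18, adjusted p = 7.8e-06).

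Among 38 other immediate-early genes tested, 9 fell and 1 rose in KO mice on SD, with a median log2 fold change of -0.49 against -0.01 over all tested genes. Cyr61, a secreted matrix protein and known target of YAP, TAZ and TEAD, fell by 1.41 (standard error 0.18, adjusted p = 0.00047). Btg2, an antiproliferative gene, fell by 1.26 (standard error 0.17, adjusted p = 0.00063), and Dusp5, a phosphatase of ERK, rose from 562 and 508 to 1475 and 940 normalized counts (adjusted p = 0.022). Of 17 heat shock and dissociation genes, 3 fell and none rose, the stress-inducible chaperone genes Hspa1b (log2 fold change -1.16, adjusted p = 0.0037) and Hspa1a (-0.90, adjusted p = 0.0082) among them. Their summed level was 99417 and 104626 in WT and 80777 and 77572 in KO libraries on SD, and at most 89583 in the HFD libraries. That of the 38 other immediate-early genes was 221338 and 203333 in the WT SD libraries and 137999 to 148720 in all other libraries. The part of handling or collection in these levels was not tested.

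Markers of other cells moved with the genotype as well. The summed level of 14 macrophage markers was 6516 and 6480 in WT and 32096 and 18385 in KO libraries on SD, 11 of the 14 were called higher, and only Fcgr1 was listed at 0 in a library, a WT HFD one. On SD limma called 0 of 8 endothelial, 9 fibroblast and progenitor and 12 adipocyte markers (5, 3 and 0 at an unadjusted p under 0.05), and 0 of 5 mesothelial, 4 lymphocyte, 3 neutrophil and 6 pericyte markers tested (0, 0, 0 and 2). The median log2 fold change was -0.7 for the endothelial, 0.17 for the fibroblast and -0.09 for the adipocyte markers. The endothelial markers summed to 31646 and 26282 in WT and 24591 and 13598 in KO libraries on SD. Mesothelial, lymphocyte and neutrophil markers were low in every library, with summed levels of 167 to 694, 41 to 286 and 12 to 80, and Cd3e, Ms4a1, Msln and Ly6g were among those listed at 0 in 1 library or more. The share of counts on mitochondrial genes was 9.51 and 9.56% in WT and 12.65 and 16.04% in KO libraries on SD. The part of these differences in the results for the 10 genes was not tested, and in RNA from many cells, fewer cells of a type and less RNA per cell cannot be told apart.

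**Figure D3:**
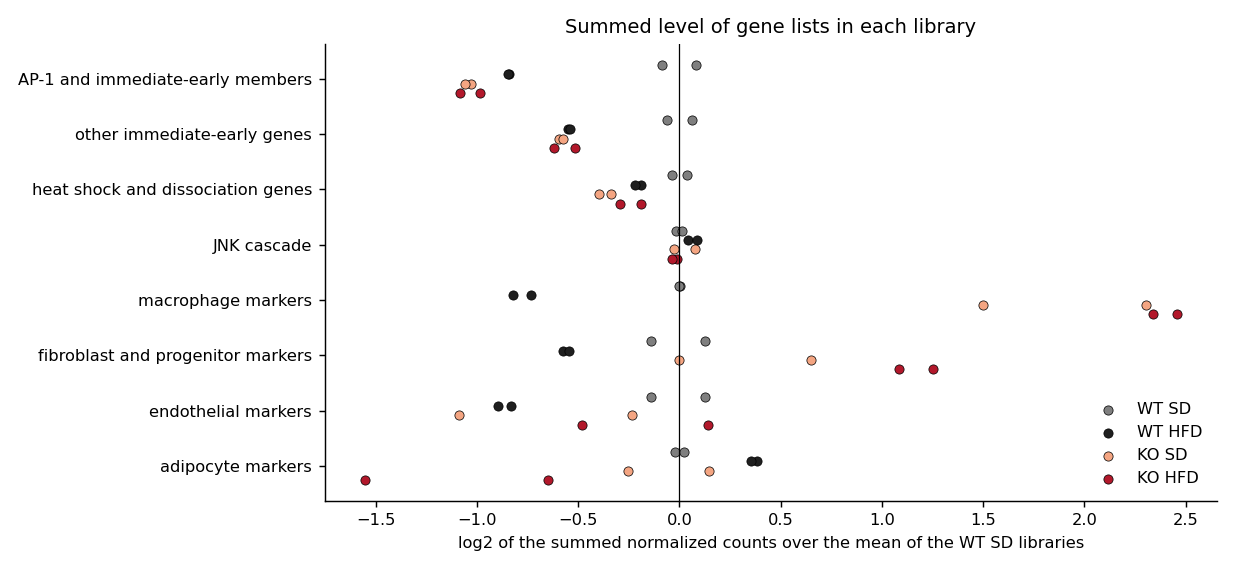
Summed normalized counts of 8 gene lists in each library, as the log2 ratio to the mean of the 2 WT SD libraries. The 10 AP-1 and immediate-early members and the 38 other immediate-early genes lie below 0 in all 6 other libraries, whereas macrophage markers lie below 0 in the WT HFD and above 0 in the 4 KO libraries.

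On HFD, the same comparison of genotypes gave a mixed picture. Of the 10 genes, 3 were called, where 32.2% of all tested genes were called (17.1% higher and 15.1% lower), so this count is near the background. Fos fell to 0.56 of the WT level (log2 fold change -0.83, standard error 0.16, adjusted p = 0.0016) and Ier2 to 0.60 (-0.74, standard error 0.15, adjusted p = 0.002), and Atf3 rose to 1.75 times the WT level (0.80, standard error 0.15, adjusted p = 0.0012). Jun (-0.56, standard error 0.16, adjusted p = 0.016) missed the limit on the fold change. The others, from Egr1 at -0.27 (standard error 0.19, adjusted p = 0.28) to Fosl1 at 0.44 (standard error 0.18, adjusted p = 0.074), were not called. Over the 10 genes the median log2 fold change was 0.07, and over all tested genes it was 0.09.

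The calls of Fos and Ier2 on HFD depended on the scaling of the libraries. With every library scaled to the same total, the median of all tested genes shifted from 0.09 to 0.48, and 4 of the 10 genes were called higher and none lower. Quantile normalization gave 3 higher and none lower, and Fos and Ier2 were not called under either. Atf3 was called higher under each of the 13 other settings, with log2 fold changes of 0.73 to 1.19, and with each library left out. Relative to Fosl2 in the same library, Fos stood at 10.2 and 10.7 per kb in WT and at 4.94 and 4.05 in KO mice on HFD, and Ier2 at 2.07 and 1.99 against 1.08 and 0.802. Atf3 stood at 1.52 and 1.51 in WT and at 2.16 and 1.90 in KO mice on HFD. Such ratios within a library do not depend on the size factors, but they move with the reference gene, and Fosl2 itself was at 1.31 times the WT level in KO mice on HFD (log2 fold change 0.39, standard error 0.15, adjusted p = 0.069). Relative to Fosl2, all 4 WT libraries lay above all 4 KO libraries for Fos, Fosb, Jun, Jund, Egr1 and Ier2, whereas those of Junb, Atf3 and Fosl1 overlapped. For Jund the lowest WT ratio was 1.26 and the highest KO ratio 1.22. How many of all tested genes separate in this way was not counted. For Fosb and Jund the separation on HFD comes with the higher Fosl2, since their own log2 fold changes on HFD were 0.01 and 0.14.

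**Figure D4:**
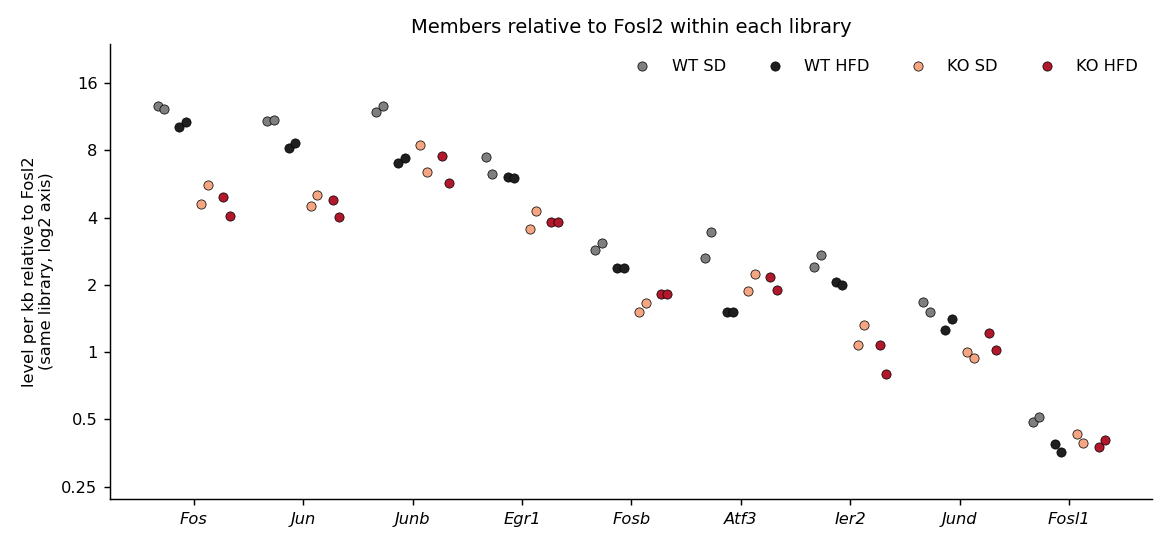
Level per kb of exon of 9 genes relative to Fosl2 in the same library, on a log2 axis, with 2 points per group. For Fos, Jun, Egr1, Fosb, Ier2 and Jund all 4 WT points lie above all 4 KO points. Those of Junb, Atf3 and Fosl1 overlap. On HFD Fosl2 was itself at 1.31 times the WT level in KO mice, which lowers every KO point, and the log2 fold changes of Fosb and Jund themselves were 0.01 and 0.14.

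Around AP-1, calls on HFD were more numerous than on SD, as they were among all tested genes, of which 32.2% were called on HFD. Of the 15 JNK cascade genes, 3 rose and 5 fell. Map3k12, a kinase at the top of the cascade, rose by 1.38 (standard error 0.23, adjusted p = 0.0006) and Mapk9 fell by 0.69 (standard error 0.16, adjusted p = 0.0053), and Mapk8 was not called (-0.21, standard error 0.22, adjusted p = 0.47). Of 19 ERK, SRF and CREB genes, 5 rose and 2 fell, and those that rose included Elk3, a partner of serum response factor (1.34, standard error 0.24, adjusted p = 0.0012), and Crtc2, a coactivator of CREB (1.18, standard error 0.20, adjusted p = 0.00067). Of 12 genes of TNF and IL-1 signalling, 6 rose and 1 fell. On HFD, Tnf, a cytokine that activates JNK, was at 429 and 504 in the WT and at 7136 and 5139 in the KO libraries (log2 fold change 3.70, standard error 0.23, adjusted p = 2.5e-07), and Il1b rose by 3.99 (standard error 0.35, adjusted p = 4.1e-06).

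The other immediate-early genes also split on HFD, with 14 of 38 higher and 5 lower. These and the following counts are read beside the 17.1% of all tested genes called higher and the 15.1% called lower. Dusp5 rose by 3.14 (standard error 0.26, adjusted p = 2.1e-06) and Pim1, a survival kinase, by 2.04 (standard error 0.24, adjusted p = 4.3e-05), while Cyr61 fell by 1.72 (standard error 0.18, adjusted p = 1.9e-05) and Btg2 by 1.21 (standard error 0.17, adjusted p = 0.00016). Of 22 other bZIP genes, 5 rose and 3 fell. Among the 24 targets, 14 rose and 3 fell. Cd44 rose by 3.30 (standard error 0.18, adjusted p = 9.5e-08), and Plau, the urokinase gene, by 3.07 (standard error 0.19, adjusted p = 2.7e-07). The summed level of the 14 macrophage markers was 3677 and 3916 in WT and 35663 and 32865 in KO libraries on HFD, with 12 of 14 called higher. Of 9 fibroblast markers 7 were called higher, of 8 endothelial markers 3, and of 12 adipocyte markers 10 were called lower. Of 6 pericyte and smooth muscle markers 3 were called higher and 2 lower. The share of counts on mitochondrial genes was 10.38 and 9.57% in WT and 18.72 and 16.05% in KO libraries on HFD, and the part of these in the results on HFD was not tested.

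In WT mice, the diet comparison showed lower levels on HFD throughout. Here 9 of the 10 genes fell, where 9.22% of all tested genes were called lower and 18.0% in either direction, and in all 10 both HFD libraries lay below both SD libraries, as in 33.6% of all tested genes. Atf3 fell to 0.36 of the SD level (log2 fold change -1.48, standard error 0.15, adjusted p = 0.00013) and Junb to 0.42 (-1.25, standard error 0.18, adjusted p = 0.0012). Fosl1 fell by 0.90 (standard error 0.18, adjusted p = 0.0063), Jun by 0.86 (0.16, adjusted p = 0.0041), Ier2 by 0.81 (0.15, adjusted p = 0.0037), Fosb by 0.80 (0.16, adjusted p = 0.0052), Jund by 0.75 (0.16, adjusted p = 0.0076), Fos by 0.74 (0.16, adjusted p = 0.0087) and Egr1 by 0.66 (0.19, adjusted p = 0.028). Fosl2, at -0.48 (standard error 0.15, adjusted p = 0.045), missed the limit on the fold change. The median over all tested genes was -0.08, and -0.48 with libraries scaled to the same total, under which the 10 genes had log2 fold changes of -0.90 or lower.

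The count of calls was lower in 4 fits with fewer WT libraries, and 9 without WT SD replicate 2. With the trend over GC content and length taken out, 6 genes were called, and Jund (-0.40), Egr1 (-0.60) and Ier2 (-0.55) were not. The call of Egr1 was also lost with no filter and with the replicate number as a block. With the close WT HFD libraries averaged to 1 sample, Junb and Atf3 were the 2 genes called. Without WT SD replicate 1, 3 genes were called, and without WT HFD replicate 1 and replicate 2, 4 and 2 genes were called. Junb and Atf3 were called in every one of these fits. With each of the 8 libraries left out in turn, the log2 fold change ran from -0.84 to -0.64 for Fos, from -0.84 to -0.77 for Fosb, from -0.93 to -0.78 for Jun, from -0.86 to -0.76 for Ier2 and from -0.86 to -0.46 for Egr1, the widest range. Over all tested genes, 3377 were called in the reported fit and 613 without WT SD replicate 1.

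Other immediate-early genes were lower on HFD in WT mice too. The lists are read beside the 9.22% of all tested genes called lower and the 18.0% called in either direction. Of 38 tested, 22 fell and 2 rose, with a median of -0.76. Gadd45g, a stress-induced gene of growth arrest, fell by 1.92 (standard error 0.21, adjusted p = 0.00019) and Egr3, a paralog of Egr1, by 1.53 (standard error 0.30, adjusted p = 0.0053), while Per2, a circadian clock gene, rose by 1.61 (standard error 0.19, adjusted p = 0.00037). Of the 22 other bZIP genes 5 fell, Ddit3 among them at -0.88 (standard error 0.21, adjusted p = 0.012), and 1 rose. Of the 17 heat shock and dissociation genes 4 fell and none rose, including Hspa1a, at -1.37 (standard error 0.17, adjusted p = 0.00048). Of the 24 targets 9 fell and none rose. Mapk9 rose by 0.73 (standard error 0.16, adjusted p = 0.0096), 1 of 2 genes of the JNK cascade that rose beside 1 that fell. In the same comparison 11 of 14 macrophage, 5 of 8 endothelial and 4 of 9 fibroblast markers were called lower. Of 12 adipocyte markers 2 were called higher and 1 lower. Of 6 pericyte and smooth muscle markers 2 were called higher and 3 lower. The part of these in the lower levels of the 10 genes was not tested. The adipocyte marker that fell was Cfd, which encodes adipsin, from 112117 and 115512 to 44882 and 44048 (log2 fold change -1.36, standard error 0.20, adjusted p = 0.0011).

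In KO mice, by contrast, the diet comparison gave no call. limma called 0 of the 10 genes, where 1.07% of all tested genes were called, and none had an unadjusted p under 0.05. Log2 fold changes ran from -0.29 for Ier2 (standard error 0.15, adjusted p = 0.37) to 0.28 for Fosb (standard error 0.16, adjusted p = 0.41), 5 were below 0 and 5 above, and the median was 0.02. The standard errors of 0.15 to 0.19 limit this comparison, and a difference of several standard errors could still miss the threshold after adjustment over all genes, as that of Cyr61 did (0.64, standard error 0.18, adjusted p = 0.11). Among the 38 other immediate-early genes, Arc, a gene of the activity response, rose by 0.95 (standard error 0.17, adjusted p = 0.021) and Arrdc3 fell by 1.07 (standard error 0.21, adjusted p = 0.037). Of the 15 genes of the JNK cascade limma called 0 (3 at an unadjusted p under 0.05). Of the 24 targets 3 rose, Mmp14, Axl and Cd44, with log2 fold changes of 1.45, 1.28 and 0.87.

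The difference between these effects was tested as the interaction of genotype and diet, that is, the genotype difference on HFD minus that on SD. The interaction was above 0 in all 10 genes and called in 6, where 8.69% of all tested genes were called above 0 and 17.4% in either direction. Atf3 had the largest value (1.53, standard error 0.21, adjusted p = 0.0024), followed by Junb (1.15, standard error 0.26, adjusted p = 0.013), Fosb (1.09, standard error 0.22, adjusted p = 0.009), Jund (1.02, standard error 0.22, adjusted p = 0.012), Fosl1 (0.89, standard error 0.26, adjusted p = 0.032) and Jun (0.81, standard error 0.22, adjusted p = 0.028). Those of Egr1 (0.70, standard error 0.26, adjusted p = 0.083), Fos (0.62, standard error 0.23, adjusted p = 0.074), Fosl2 (0.55, standard error 0.22, adjusted p = 0.097) and Ier2 (0.52, standard error 0.21, adjusted p = 0.099) missed the threshold, so a difference of the genotype effect between the diets was not shown for Fos or Ier2. Of the 38 other immediate-early genes, 18 had an interaction called above 0 and 2 below. Markers of other cells moved with it: 12 of 14 macrophage, 8 of 9 fibroblast and 6 of 8 endothelial markers were called above 0 and 9 of 12 adipocyte markers below 0. Of 6 pericyte and smooth muscle markers 2 were called above 0 and 1 below. The part of these in the interaction of the 10 genes was not tested.

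Atf3 was the only one of the 10 genes whose interaction was called in every setting and with each library left out. With the WT HFD libraries as 1 sample, or without WT SD replicate 1, WT HFD replicate 1 or WT HFD replicate 2, it was the 1 gene called. With each library left out the interaction ran from 0.95 to 1.22 for Fosb, from 0.90 to 1.40 for Junb, from 0.86 to 1.17 for Jund, from 0.73 to 0.88 for Jun and from 0.71 to 1.07 for Fosl1, and over all tested genes the calls went from 3274 to 482 without WT SD replicate 1. Scaling to the same total and quantile normalization, in contrast, each called all 10.

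**Figure D5:**
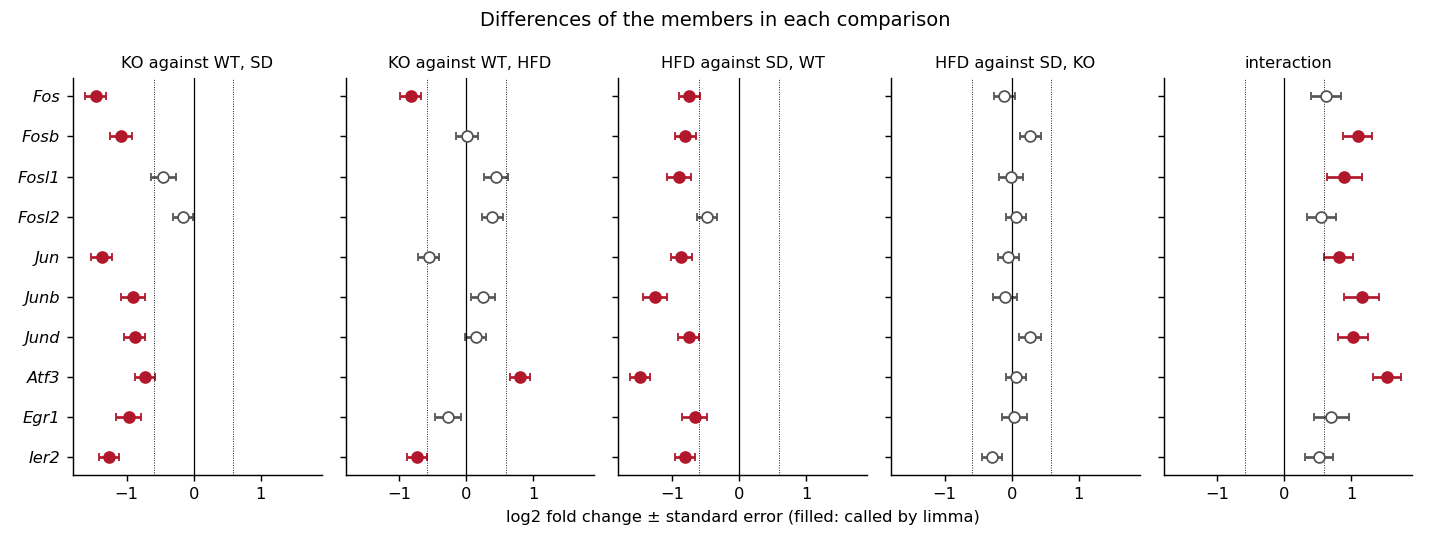
Log2 fold changes from limma with their standard errors for the 10 genes in the 4 comparisons and the interaction. Filled points were called, and dotted lines mark 0.59 in either direction. On SD and in WT mice all points lie below 0, and in KO mice the diet differences lie between -0.29 and 0.28.

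Over the 8 libraries, the 10 genes followed a few profiles, compared by the root mean square difference of log2 values after centring each gene on its mean, over genes whose mean was 50 or more. Fos, Jun and Ier2 were nearest to one another, with differences of 0.11 between Fos and Jun, 0.117 between Jun and Ier2 and 0.122 between Fos and Ier2. Ifrd1, a transcriptional coregulator, was also among the 3 nearest genes of Jun (0.164) and Ier2 (0.12), and Spsb1 of Fos (0.172). Maff was the nearest gene of both Fosb (0.079) and Jund (0.109), and the orphan receptor Nr4a1 was the third of Fosb (0.122). Junb had Hspa1a (0.145) and Gadd45b (0.156) among its 3 nearest, Egr1 had Cited2 (0.128) and Fosb (0.142), and Fosl1 had Gabpb1 (0.095) and Hmox1 (0.097), the haem oxygenase gene. Fosl2 was nearest to Ubn1 (0.044), Brwd1 and Zcchc6 (both 0.056), and Atf3 to Polg2 (0.142) and Pde6d (0.149). The pair of members farthest apart was Fos and Atf3 (0.66). Likeness over 8 libraries of 4 groups is given as a description, since all genes share the same libraries.

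Within groups, the libraries did not differ in 1 direction for all members. In WT mice on SD, replicate 1 was higher in 8 of the 10 genes and replicate 2 in Atf3 and Ier2, with Egr1 the widest apart, by 1.32 times. In WT mice on HFD no gene differed by more than 1.12 times. In KO mice on HFD, replicate 2 was higher in 7 of the 10.

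Some values rest on shared sequence. Ccdc85b, on the opposite strand, covers 57.2% of the exon bases of Fosl1, and Gm11175 covers 52.6% of those of Jund and has no line in the table. Junos overlaps 7.3% of the exon bases of Jun and Prdx2 7.5% of those of Junb, also on the opposite strand. Whether the counting used the strand is not given in the sources used here, so the values of Fosl1 and Jund could include or lack reads of these partners and are uncertain to that extent.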

How the data were processed

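The deposited values, called normalized counts, are a score, not a standard unit. The authors aligned reads to GRCm38 with STAR 2.5.2b (versions from the submitters' processing notes) and counted those on exons per gene with featureCounts 1.5.1, without reads over several genes or places. They then divided each library by its size factor and rounded the values. The authors ran DESeq2 1.14.1. No count test was run here, because rounding keeps whole reads from being recovered. Library preparation removed ribosomal RNA. Groups came from the sample labels. The value of 1 read per library (0.795 to 1.135 normalized counts) was estimated from which low values occur, and gave the depth.

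Genes with a mean of at least 5 were tested with limma 3.58.1 (lmFit, contrasts.fit, eBayes with trend; R 4.3.3) on log2(value + 1), which understates the change of low genes. A single fit of the 4 groups (residual degrees of freedom 4, prior 8.59) gave 5 contrasts. The fit was tested on simulated data. Replicate numbers did not pair the libraries. The 10 genes, the other lists and the alternatives were chosen with earlier results of these data known. Named genes are the 10 members, Yap1, Wwtr1, Mapk8, Mapk9, up to 3 called genes per list and comparison with the largest change and a mean of at least 50, and the 3 genes most like a member. A bZIP gene that this rule named is not reported here. Cyr61 and Btg2 on HFD, Ddit3 and Mapk9 recur from comparisons in which the rule named them. Exon lengths and overlaps come from GENCODE vM21, and tables and figures were made with Python 3.11.15, pandas 2.3.3, numpy 2.4.6 and matplotlib 3.10.9.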

Additional observations from a re-analysis of the deposited data

Results flagged for a closer look

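In 6 of the 10 genes limma called the interaction, that is, a genotype difference on HFD unlike that on SD. Over all tested genes 17.4% were called in either direction and 8.69% above 0. Its value was 1.53 for Atf3, 1.15 for Junb, 1.09 for Fosb, 1.02 for Jund, 0.89 for Fosl1 and 0.81 for Jun, and was above 0 in all 6. Without a filter, Junb, Fosl1 and Jun were not called. With the GC and length trend taken out, Jund, Fosl1 and Jun were not. The value of Fosb ran from 0.95 to 1.22 with each library left out, and Atf3 alone was called in every setting. Atf3 was the gene whose genotype difference was called on both diets with opposite signs, -0.73 on SD and 0.80 on HFD, though the call on SD was lost without WT SD replicate 2 (-0.61) or KO SD replicate 1 (-0.65). With 2 libraries per group, no group was large enough to look for single libraries far from the others.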

How the results depend on the processing

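For the count of genes called between the genotypes on SD, leaving out each library in turn gave 5 to 8. For the diet comparison in WT mice it was 9 in the reported fit, 2 with the WT HFD libraries taken as 1 sample, 6 after the GC and length trend was taken out and 2 to 9 with each library left out. For the interaction it was 6 as reported, 3 without a filter, 3 after the GC and length trend was taken out, 1 with the WT HFD libraries as 1 sample, 10 under scaling to the same total, 10 under quantile normalization and 1 to 8 with each library left out. The causes were not tested. On HFD the genes behind the count changed with the scaling. With the same total and under quantile normalization, Fos and Ier2 were not called, while Fosl2 and Junb were called higher. The counts on HFD, 3 as reported, and in the diet comparison of KO mice, 0, stayed within 1.5 times under every alternative. Leaving out both WT SD libraries, a choice made after seeing the data, gave 3 and 0. Differences that changed sign were uncalled. For the genotype on HFD they were Fosb (-0.04 with the GC and length trend taken out, -0.12 to 0.15 with a library left out), Jund (-0.06 with that trend taken out), Jun (0.04 under quantile normalization) and Egr1 (0.11 under the same total, 0.46 under quantile normalization). For the diet in KO mice they were Fosl1 (0.01 under the same total, 0.00 under quantile normalization, -0.19 to 0.17 with a library left out), Fosl2 (0.00 with the trend taken out, -0.06 to 0.20 with a library left out), Jun (0.08) and Junb (0.03) under quantile normalization, and Egr1 (-0.06 with the trend taken out). With a library left out, Junb ran from -0.35 to 0.15, Atf3 from -0.02 to 0.14 and Egr1 from -0.09 to 0.17. The replicate numbers did not pair the libraries (correlations of deviations -0.107 to 0.0397 over 6 pairs of groups), and with the number as a block 3, 8, 8, 0 and 4 genes were called, in the order HFD, SD, diet in WT, diet in KO and interaction. The lowest value of the 10 genes was 570 normalized counts, and intervals from counts would cover counting error only.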
